A study of Mus musculus with 6 samples.

Results

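The 9 long noncoding RNA genes examined in the adult brain of Bahd1-WT and Bahd1-KO mice were Malat1, Neat1, Miat, Snhg11, Snhg1, Gas5, Rmst, Pantr1 and Oip5os1. They were chosen by name, as 9 of the 53801 genes of the deposited read count table. For 7 of them the row carried the gene's own symbol, and the other 2 were found by their Ensembl identifier, Rmst under the name RF01962 and Oip5os1, also known as Cyrano, under 1700020I14Rik. RNA came from a single brain hemisphere of each of 3 Bahd1-WT (Bahd1+/+) and 3 Bahd1-KO (Bahd1-/-) male mice of the C57BL/6 strain, all about 70 weeks old and given no agent. The deletion of Bahd1 was present in every tissue of the Bahd1-KO mice, and many such mice die around birth, so the animals studied were survivors. Polyadenylated RNA was sequenced, and reads were counted on exons. BAHD1 is a chromatin protein that takes part in gene silencing, and the comparison asks which transcripts differ in level when it is missing.

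Long noncoding RNAs are transcribed and processed like messenger RNAs but are not known to be translated into a stable protein. Several of those studied here are nuclear: Malat1 gathers in nuclear speckles, which hold splicing factors, Neat1 is the scaffold of paraspeckles, and Miat forms its own nuclear bodies in neurons. The Snhg genes and Gas5 are host genes, whose introns give small nucleolar RNAs (snoRNAs) that guide the modification of ribosomal RNA, while the spliced RNA of Gas5 is short-lived because translation exposes it to nonsense-mediated decay. Rmst and Pantr1 are made in the neural lineage, and Oip5os1 carries a site through which the microRNA miR-7 is degraded in the brain. All are known as brain-expressed RNAs, and Miat, Snhg11 and Rmst mark neurons or their precursors.

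Some short sequences show how these RNAs differ in kind. Malat1 and Neat1 end in a U-rich and an A-rich stretch that fold into a triple helix in place of a poly(A) tail. Both are given 5′ to 3′ as DNA, with the U-rich and the A-rich motif in capitals, the letters searched on the transcript strand, and Malat1 lies at chr19:5795982-5796027 and Neat1 at chr19:5824708-5824760, both on the minus strand of GRCm38.
Malat1: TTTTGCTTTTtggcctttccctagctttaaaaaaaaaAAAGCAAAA
Neat1: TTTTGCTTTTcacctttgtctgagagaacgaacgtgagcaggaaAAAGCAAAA
Of the longest transcripts of 55450 annotated genes, 2 held this pair of motifs within 100 bases (0.00361%), and they were these 2 genes.

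Miat is known for repeats of TACTAAC, the sequence that the splicing factor SF1 binds at branch points. Its longest transcript of 9163 bases held 6 copies, a number reached by 3 of the 55450 transcripts (0.00541%), whereas at least 1 copy was found in 4.56%. Among the 4190 transcripts of 5000 bases or more, 2 held at least 6 copies (0.0477%) and 16.8% at least 1. The closest 3 copies stand in capitals in this stretch of its exons, chr5:112216759-112216805, minus strand, GRCm38.
Miat: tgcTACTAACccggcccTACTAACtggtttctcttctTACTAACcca

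The miR-7 site of Oip5os1 (chr2:119602137-119602161, plus strand, GRCm38) is shown with both miR-7 forms of RefSeq (GRCm38.p6), and the capitals mark the seed of the microRNA, bases 2 to 8, and its match in the RNA. The seed match GTCTTCC alone was frequent, in 15.0% of all longest transcripts and in 46.8% of those of 5000 bases or more, and Oip5os1 held 2 of them. Beyond the seed, the site shown could pair without a break with 13 bases of the rest of miR-7a, past base 9, against a longest run of 3 for the other site.
Oip5os1: acaacaaaatcaccaatGTCTTCCa
mmu-miR-7a-5p: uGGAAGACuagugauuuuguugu
mmu-miR-7b-5p: uGGAAGACuugugauuuuguuguu

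Host genes of snoRNAs commonly start with a C followed by a run of C or T, the 5′ terminal oligopyrimidine motif of transcripts tied to ribosome synthesis. RefSeq (GRCm38.p6) held a start for 6 of the 9 genes, and the first 30 bases are given for the host genes Gas5 and Snhg1 and for Oip5os1, which is no host gene but opened with the same letters as Gas5. The opening C and the C or T after it are in capitals, and the stretches lie at chr1:161035166-161035195, chr19:8723487-8723516 and chr2:119594296-119594325, all on the plus strand.
Gas5: CTTTCggagctgtgcggcattctgagcagg
Snhg1: CTCatttttccttgttcggggtaagtactc
Oip5os1: CTTTCgcgcctccgcccctgggttggcgga
A first C with at least 4 further C or T was found in 2.51% of 32851 promoters. The run was 6 bases long at the start of Miat, 5 in Gas5 and Oip5os1, 3 in Snhg1, 1 in Malat1 and 0 in Snhg11. Neat1, Rmst and Pantr1 had no entry.

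The 6 libraries held between 42297150 and 93557948 counts, and Bahd1-KO replicate 1 was the smallest. Bahd1 was counted 1383, 844 and 1099 times in the Bahd1-WT and 0, 14 and 1 times in the Bahd1-KO libraries, as the labels say. Neuronal markers summed to 6980 to 9270 CPM in each library, so the tissue was brain. Lung epithelium markers, all 4 of which were detected, reached 100 CPM in Bahd1-WT replicate 1 and 24.4 in replicate 2, against 0.437 to 2.15 in the other 4 libraries. Choroid plexus markers summed to 249 to 345 CPM in the Bahd1-WT mice and to 430, 1050 and 585 CPM in the Bahd1-KO mice. Most of this sum was Ttr, while Kl of the same list went the other way, at 32.5, 38.4 and 32.5 CPM against 25.4, 25.5 and 27.5 CPM. Red blood cell markers were highest in Bahd1-KO replicate 2 (75.9 CPM against 9.4 to 25.5 CPM elsewhere), and pituitary markers in Bahd1-WT replicate 1 (17.3 CPM) and Bahd1-KO replicate 3 (41 CPM, against 0.0919 to 3.3 CPM elsewhere). The part of these other tissues in the values below was not tested. In pieces of whole tissue, fewer cells of a type and less RNA per cell cannot be told apart.

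Levels were compared between genes as CPM, the read counts scaled to library size, per kilobase of exon. In the Bahd1-WT mice Snhg11 stood highest, at 178 ± 31 CPM per kilobase (SD, n = 3), before Oip5os1 at 124 ± 4.5, Malat1 at 63.6 ± 23 and Gas5 at 36 ± 1.9. Miat (9.35 ± 0.69), Pantr1 (9.23 ± 2.0), Snhg1 (5.11 ± 0.94) and Neat1 (4.94 ± 0.89) formed a lower tier, and Rmst was lowest at 0.871 ± 0.12 CPM per kilobase. Malat1 and Gas5 overlapped between mice, as did Miat and Pantr1, and Snhg1 and Neat1, so these neighbours in the order did not differ beyond their spread. The order in the Bahd1-KO mice was the same except that Neat1 stood above Snhg1. There only the steps from Gas5 to Miat and from Snhg1 to Rmst were free of overlap between mice. Within each Bahd1-KO mouse Snhg11 still lay above Oip5os1 (122 against 101, 98.1 against 59.4 and 141 against 100 CPM per kilobase). The other overlapping steps changed their order from mouse to mouse.

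**Figure D1:**
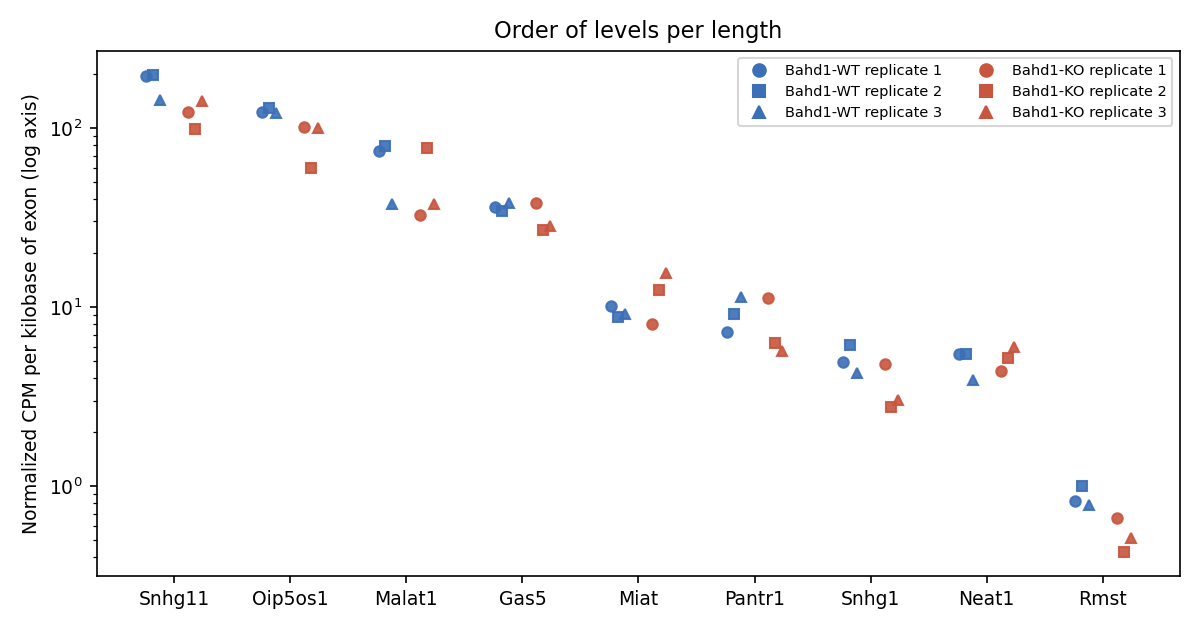
Level of each long noncoding RNA per length, as normalised CPM per kilobase of exon on a log axis, with 1 point per mouse (blue, Bahd1-WT; red, Bahd1-KO) and genes in the order of the Bahd1-WT means. Snhg11 (178 in Bahd1-WT) and Rmst (0.871) mark the ends of the range.

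The place of genes in this order depends on how they were captured and on the length used. The length covered all exons of a gene. It was 8521 bases for Snhg11, 7423 for Rmst, 4458 for Pantr1 and 3760 for Gas5. Their longest transcripts have 5864, 2891, 2085 and 2556 bases, over which their levels would be higher. For the other genes the lengths were equal or nearer to each other. The order by longest transcript was not computed. Malat1 and the long form of Neat1 lack a poly(A) tail, and the libraries were made from polyadenylated RNA. The length of Neat1 was taken as 20771 bases, that of its long form, which gives 5.06 CPM per kilobase over all mice. Over the 3004 bases of Neat1-202 the same counts would amount to 35.0 CPM per kilobase. Gas5 was at 36 in Bahd1-WT and 31.1 in Bahd1-KO mice. Its length covers all its transcripts, so these levels and that of Neat1-202 are not measured alike. The counts do not separate the forms. Exon bases shared with another gene on the same strand made up 20.9% of Snhg1, 17.8% of Gas5, 12.5% of Rmst and 7.74% of Miat, and at most 1.85% of the other 5 genes, and reads there could not be assigned to 1 gene.

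None of the 9 long noncoding RNAs passed the test between genotypes. In edgeR's quasi-likelihood test an adjusted p-value under 0.05 was reached by 0 of the 9 genes, against 2 of all 23975 genes tested (0.00834%). All 9 genes had passed the filter on low counts. Before adjustment 3 of the 9, Snhg11, Rmst and Oip5os1, had p under 0.05, all with lower levels in the Bahd1-KO brains. That threshold was passed by 31.8% of all genes, 19.9% with higher and 12% with lower levels. The same 3 genes were those in which every Bahd1-KO mouse lay below every Bahd1-WT mouse, Snhg11 only with TMM or upper-quartile factors, which was the case for 19.3% of all genes. Higher values in every Bahd1-KO mouse were seen in none of the 9 and in 20.6% of all genes, and 39.8% of all genes were separate in either direction. DESeq2's Wald test called 1 of the 9, Rmst, against 17.2% of all genes, and 2.9% in that direction. The fold change was negative for 7 of the 9 genes and for 53.4% of all genes, with a median log2 fold change of -0.37 over the 9 and of -0.06 over all genes.

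**Figure D2:**
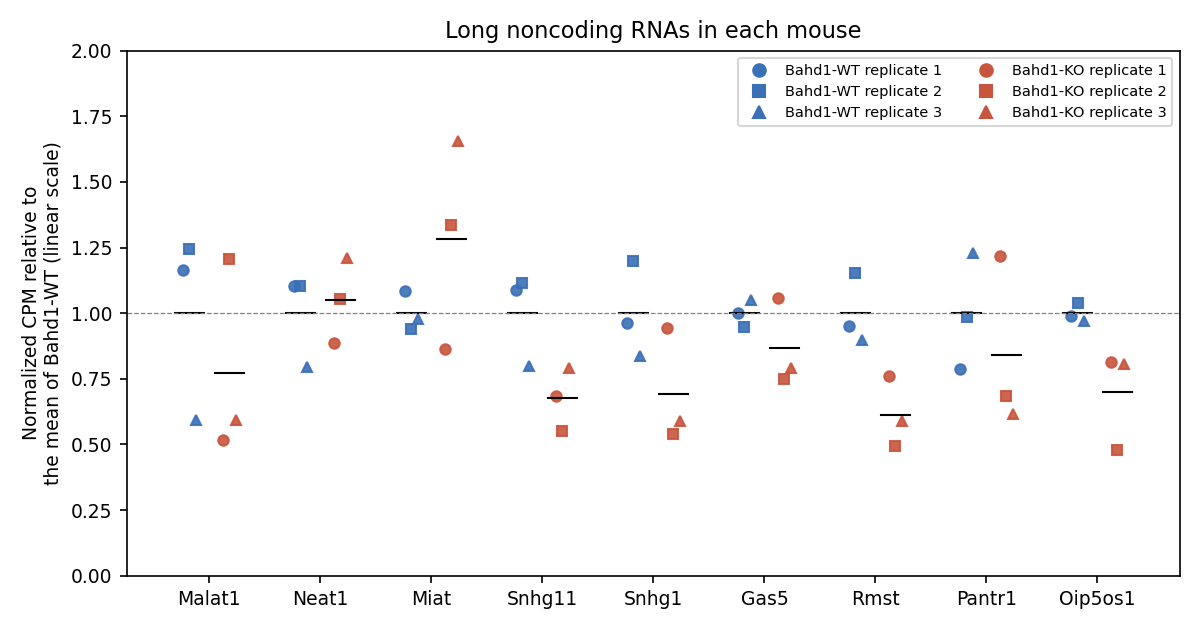
Normalised CPM of each long noncoding RNA in each of the 6 mice, divided by the mean of the Bahd1-WT mice (linear axis; short bars, genotype means). The genotypes are separate for Snhg11, Rmst and Oip5os1, and Malat1 is scattered over the same range in both genotypes, from 229 to 552 CPM.

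Malat1 (ENSMUSG00000092341, chr19:5795690-5802672, minus strand) is a single unspliced RNA of 6983 bases in its main form. It had 516, 552 and 263 CPM in the Bahd1-WT mice and 229, 536 and 263 CPM in the Bahd1-KO mice. Within each genotype, high and low mice stood side by side, 2.1-fold apart in Bahd1-WT and 2.34-fold in Bahd1-KO, and the genotypes overlapped. Among the 9 genes this was the widest spread in both genotypes. The means were 444 ± 160 and 343 ± 170 CPM (SD, n = 3), and the log2 fold change was -0.37 (standard error 0.37, 95% interval -1.22 to 0.47, adjusted p = 0.5 in edgeR's quasi-likelihood test). Leaving out 1 library moved it between -0.85 (without Bahd1-KO replicate 2) and -0.12 (without Bahd1-KO replicate 1).

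Neat1 (ENSMUSG00000092274, chr19:5824708-5845478, minus strand) lies 22036 bases from Malat1. Its levels were 113, 113 and 81.3 CPM in Bahd1-WT and 90.8, 108 and 124 CPM in Bahd1-KO mice, and the genotypes overlapped throughout. The genotypes differed by 0.06 on the log2 scale (standard error 0.19, adjusted p = 0.84 in edgeR's test) with a 95% interval from -0.37 to 0.50. The low Bahd1-WT mouse was replicate 3, which was also the low one for Malat1.

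Miat (ENSMUSG00000097767, chr5:112213228-112229395, minus strand) was the other gene with a higher mean in Bahd1-KO. It was measured at 94.1, 81.6 and 85 CPM in the Bahd1-WT mice, within 1.15-fold of each other, and at 74.9, 116 and 144 CPM in the Bahd1-KO mice. Bahd1-KO replicate 1 lay below all Bahd1-WT mice and the other two above them. The means of 86.9 ± 6.4 and 112 ± 35 CPM (SD, n = 3) differed by 0.36 on the log2 scale (standard error 0.23, adjusted p = 0.297 in edgeR's test). With Bahd1-KO replicate 1 left out the log2 fold change was 0.61 with an adjusted p of 0.022, in a fit that called 7113 of 23690 genes (30%). Without Bahd1-KO replicate 3 it was 0.15 with an adjusted p of 0.683.

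Snhg11 (ENSMUSG00000044349, chr2:158375638-158386145, plus strand) is a host gene with neuronal expression, which the annotation used here lists as protein coding, and it had the most counts of the 9. The Bahd1-WT mice had 1650, 1690 and 1210 CPM and the Bahd1-KO mice 1040, 836 and 1200 CPM. The genotypes were separate, but Bahd1-WT replicate 3 and Bahd1-KO replicate 3 lay next to each other, and with DESeq2 size factors or total counts they overlapped. From 1520 ± 260 to 1020 ± 180 CPM (SD, n = 3), the mean was 1.48-fold lower in Bahd1-KO (log2 fold change -0.57, standard error 0.20, 95% interval -1.02 to -0.12). The adjusted p-value was 0.0996 in edgeR's test, from an unadjusted 0.0193 in the same test, and an exact two-sided permutation test gave p = 0.1, the smallest that 3 against 3 mice allow.

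Snhg1 (ENSMUSG00000108414, chr19:8723475-8726443, plus strand) hosts 8 annotated snoRNA genes, for which no read was counted. It was low in 2 Bahd1-KO mice, with 8.16 and 8.95 CPM, while Bahd1-KO replicate 1, with 14.3 CPM, lay among the Bahd1-WT mice with 14.6, 18.2 and 12.7 CPM. The log2 fold change was -0.54 (standard error 0.26, adjusted p = 0.19 in edgeR's test), and without Bahd1-KO replicate 1 it was -0.80 (adjusted p = 0.0271 in the same test). With any other library left out it lay between -0.65 and -0.39.

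Gas5 (ENSMUSG00000053332, chr1:161034422-161038539, plus strand), host of 10 annotated snoRNA genes that likewise had no counts (the 2 inside Snhg11 had 48 in all libraries), showed the same arrangement of mice. Its levels were 135, 128 and 142 CPM in Bahd1-WT and 143, 101 and 107 CPM in Bahd1-KO, where replicate 1 was again the high one. The log2 fold change was -0.21 (standard error 0.17, 95% interval -0.61 to 0.19, adjusted p = 0.414 in edgeR's test). Genes on the same strand shared 669 exon bases of Gas5 and 622 of Snhg1, where reads could not be assigned to 1 gene. The preparation also kept longer, polyadenylated RNA, and no statement on the snoRNAs themselves can be made from these libraries.

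Rmst (ENSMUSG00000112117, chr10:92071037-92165170, minus strand) binds SOX2 in neural precursors and was the scarcest of the 9 genes, with 214 to 563 counts in each library. Its levels of 6.15, 7.45 and 5.8 CPM in Bahd1-WT mice were all above the 4.92, 3.19 and 3.8 CPM of the Bahd1-KO mice. With means of 6.47 ± 0.87 and 3.97 ± 0.88 CPM (SD, n = 3) it had the most negative log2 fold change of the 9 genes in this fit, -0.71 (standard error 0.24, 95% interval -1.25 to -0.17, adjusted p = 0.0921 in edgeR's quasi-likelihood test, unadjusted p = 0.016). DESeq2's Wald test gave -0.69 with an adjusted p of 0.0385, and edgeR without Bahd1-KO replicate 1 gave -0.86 with 0.0249. The exact permutation test again gave p = 0.1.

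Pantr1 (ENSMUSG00000060424, chr1:42590782-42694842, minus strand) starts beside Pou3f3, a transcription factor gene of cortical neurons. The Bahd1-WT mice had 32.3, 40.5 and 50.5 CPM and the Bahd1-KO mice 50.1, 28.1 and 25.3 CPM. As for Snhg1 and Gas5, Bahd1-KO replicate 1 was high and the other two were low. The log2 fold change was -0.25 (standard error 0.29, adjusted p = 0.554 in edgeR's test).

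Oip5os1 (ENSMUSG00000085438, chr2:119594297-119607502, plus strand) was the most even of the 9 genes in the Bahd1-WT mice, with 1020, 1070 and 1000 CPM and a coefficient of variation of 3.61%. In the Bahd1-KO mice it had 839, 494 and 831 CPM and a coefficient of variation of 27.3%. All Bahd1-KO mice lay below all Bahd1-WT mice, and replicate 2 was the lowest. The mean was 1.43-fold lower, at 721 ± 200 against 1030 ± 37 CPM (SD, n = 3), with a log2 fold change of -0.52 (standard error 0.21, 95% interval -1.01 to -0.03, adjusted p = 0.141 in edgeR's test, unadjusted p = 0.0406). The gene lies 669769 bases from Bahd1 on chromosome 2, and Snhg11 lies on the same chromosome at 39451110 bases from Bahd1.

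Bahd1-KO replicate 1, the smallest library, lay within or above the Bahd1-WT range for Neat1, Snhg1, Gas5 and Pantr1. Without it the genotypes did not overlap in 7 of the 9 genes, against 61.8% of all genes, and Malat1 and Neat1 were the exceptions. Of the 7, Miat was higher and the other 6 were lower in Bahd1-KO. An adjusted p under 0.05 in edgeR's test was then reached by 3 of the 9 genes, Miat, Snhg1 and Rmst, beside the 30% of all genes given above.

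The GC content of the transcripts, which the choice of genes did not use, lay between 39.9% and 47.3% in 8 of the 9 genes and was 55.1% in Miat. Across the 9890 genes with a mean of at least 10 CPM, the fold change between genotypes followed the GC content of the transcript, with a Spearman correlation of 0.867 across genes, which are not independent replicates. The median log2 fold change was -0.54 in the decile of genes with the lowest GC content and 1.34 in the highest decile. The trend also differed between libraries of the same genotype. Set against the mean of the Bahd1-WT mice, genes of the highest GC decile had a median log2 difference, from log2(CPM + 1), of 0.52 in Bahd1-KO replicate 1, 1.93 in replicate 2 and 1.09 in replicate 3, and of 0.24, -0.24 and 0.00 in the 3 Bahd1-WT mice. All Bahd1-KO libraries thus lay beyond the Bahd1-WT libraries, with replicate 1 the nearest to them, and the part of this trend in the differences of the 9 genes was not tested. An offset fitted in each library to GC content and length reduced this correlation to -0.046.

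**Figure D3:**
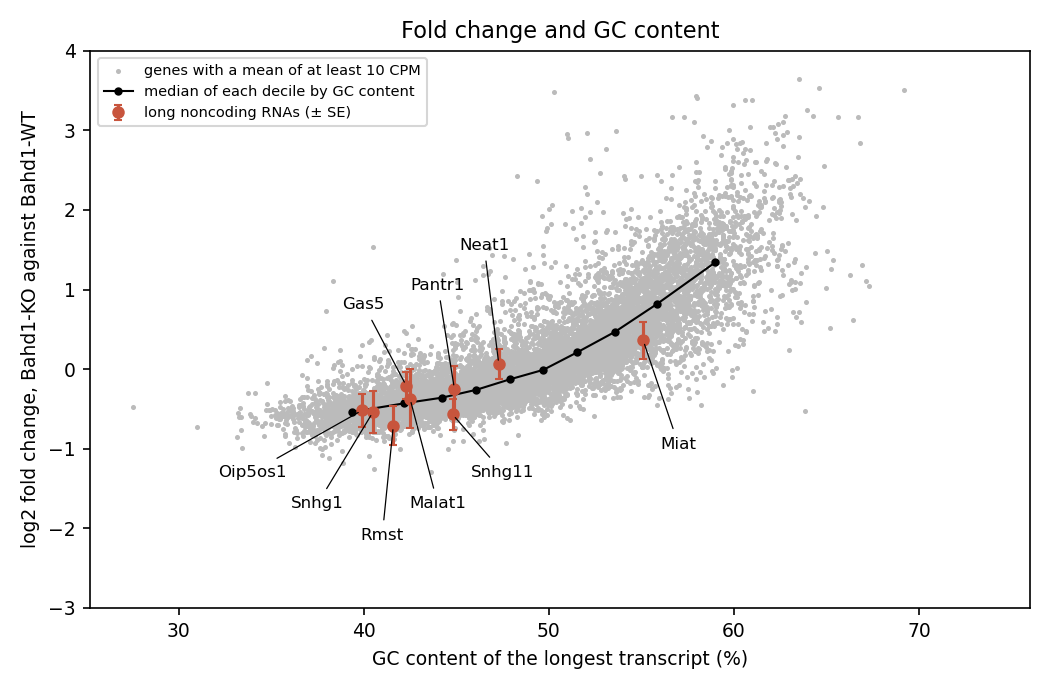
Log2 fold change between genotypes against the GC content of the longest transcript for 9890 genes (grey), with the median of each decile by GC content (black line) and the 9 long noncoding RNAs with their standard errors (red). Miat, at 55.1% GC, is the one to the right, the other 8 lie at 47.3% or less, and 7 genes lie outside the vertical axis.

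With this offset the median log2 fold change of the 9 genes became -0.05, beside -0.06 over all genes, and 5 of the 9 were below 0. The sign turned in 4 genes, those of Malat1 (from -0.37 to 0.24), Miat (from 0.36 to -0.29), Gas5 (from -0.21 to 0.17) and Oip5os1 (from -0.52 to 0.06). Snhg11 came to -0.24 (standard error 0.13) and Rmst to -0.27 (standard error 0.14). The value furthest from 0 was then that of Neat1, 0.40 (standard error 0.14, adjusted p = 0.146 in edgeR's test with the offset), the only one of the 9 with an unadjusted p under 0.05, against 21.5% of all genes. No gene of the 9 passed an adjusted p under 0.05 with the offset, against 4 of all genes (0.0167%). Without overlap between genotypes were then Rmst, lower in Bahd1-KO, and Neat1 and Gas5, higher in Bahd1-KO, 3 of the 9 genes beside 26.2% of all genes.

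**Figure D4:**
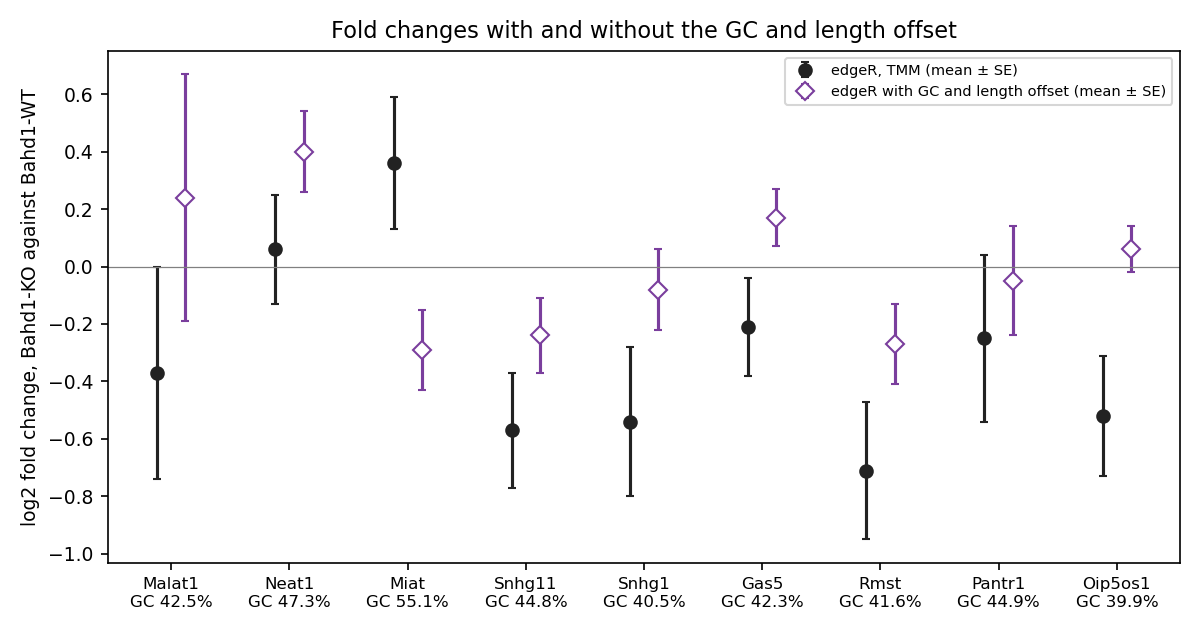
Log2 fold change between genotypes with its standard error for each long noncoding RNA, from edgeR with TMM factors (black) and with the GC and length offset (open diamonds), with the GC content under each name. The offset values lie between -0.29 and 0.40.

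Genes that work with these RNAs, or belong to the same classes, were read from the same fit, and in none of the 6 lists did a gene reach an adjusted p under 0.05 in edgeR's test. Of 13 other snoRNA host genes tested (of 15 listed), 1 was higher and 1 lower at an unadjusted p under 0.05, which 19.9% and 12% of all genes were, with a median log2 fold change of -0.04. These were Snhg8, at 1.79, 1.54 and 1.28 CPM in Bahd1-WT and 2.37, 10.8 and 2.54 CPM in Bahd1-KO mice, and Snhg14, the host of the snoRNAs of the Prader-Willi region, at 106, 103 and 88.8 against 70.8, 41.2 and 68.2 CPM. The highest Snhg8 value was that of Bahd1-KO replicate 2. Both passed DESeq2's Wald test (adjusted p = 0.00531 and 0.0361), and the log2 fold change of Snhg14, whose GC content is 31.0%, went from -0.73 to 0.10 with the offset, while that of Snhg8 went from 1.77 to 1.86.

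Among 23 other long noncoding RNAs of the brain (of 25 listed), 1 was higher and 5 were lower at an unadjusted p under 0.05, beside 19.9% and 12% of all genes, and the median log2 fold change was -0.33. Kcnq1ot1, the silencing RNA of an imprinted cluster, had 23.5, 20.2 and 15.7 CPM in Bahd1-WT and 9.84, 10.6 and 7.55 CPM in Bahd1-KO mice. This was a difference of -1.09 on the log2 scale, with a standard error of 0.23 and an adjusted p of 0.0634 in edgeR's test. At the other end was Mirg, a microRNA host of the Meg3 cluster, with 13, 8.63 and 8.71 CPM against 10.7, 25.3 and 21.2 CPM (log2 fold change 0.91, standard error 0.33, adjusted p = 0.105 in the same test). In DESeq2's test 1 gene of this list was higher and 4 were lower, beside 14.3% and 2.9% of all genes. With the offset Kcnq1ot1 came to -0.06 and Mirg to 0.64.

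For the nuclear bodies, the median log2 fold change over 15 paraspeckle protein genes was -0.20, with 2 higher and 2 lower at an unadjusted p under 0.05, and over 11 nuclear speckle protein genes it was -0.44, with 2 higher and 5 lower. Of all genes, 19.9% were higher and 12% lower by that threshold. The ends of the first list were Smarca4, a chromatin remodelling ATPase (1.20, standard error 0.37), and Cpsf6, a 3′ end processing factor (-0.59, standard error 0.18). The ends of the second were U2af2, which binds the polypyrimidine tract of introns (1.26, standard error 0.32), and Srsf1, a splicing factor (-0.59, standard error 0.22). Smarca4 and U2af2 had 55.9% and 53.9% GC, Cpsf6 and Srsf1 38.5% and 40.6%. With the offset the 4 values were 0.37, 0.65, 0.04 and -0.08. DESeq2's test called 2 paraspeckle genes and 1 nuclear speckle gene, all higher, as were 14.3% of all genes. NONO, SFPQ and PSPC1, the core proteins of paraspeckles, had log2 fold changes of -0.01, -0.08 and -0.21 in their genes, which were looked at after the values were known.

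In the nonsense-mediated decay pathway, which degrades spliced Gas5 RNA, 3 of 12 genes were higher and 3 lower at an unadjusted p under 0.05 (19.9% and 12% of all genes), with a median of 0.09. Smg9 was at the upper end (1.52, standard error 0.42, adjusted p = 0.0653 in edgeR's test) and Smg1, the kinase of the pathway, at the lower (-0.57, standard error 0.16, adjusted p = 0.0682). With the offset Smg9 came to 0.01 and Smg1 to -0.13. DESeq2's test called 2 genes higher and 1 lower, where 14.3% and 2.9% of all genes were called. The 5 genes of known partners gave no edgeR call either. Sf1, whose protein binds the repeats of Miat, differed by 0.25 on the log2 scale (standard error 0.19), Celf3, whose protein also meets Miat in nuclear bodies, 1.43 (standard error 0.40, adjusted p = 0.0676 in edgeR's test and 0.00386 in DESeq2's), Sox2 and Hnrnpa2b1, whose proteins bind Rmst, -0.24 (standard error 0.22) and -0.40 (standard error 0.22), and Pou3f3, the neighbour of Pantr1, -0.23 (standard error 0.16). Celf3 was at 27.7, 16.9 and 25.2 CPM in Bahd1-WT and at 31.5, 105 and 51.7 CPM in Bahd1-KO mice, without overlap. The offset turned Sf1 to -0.46 (adjusted p = 0.0872 in edgeR's test) and brought Celf3 to 0.45 (adjusted p = 0.198), Sox2 to -0.39, Hnrnpa2b1 to -0.07 and Pou3f3 to -0.32.

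**Figure D5:**
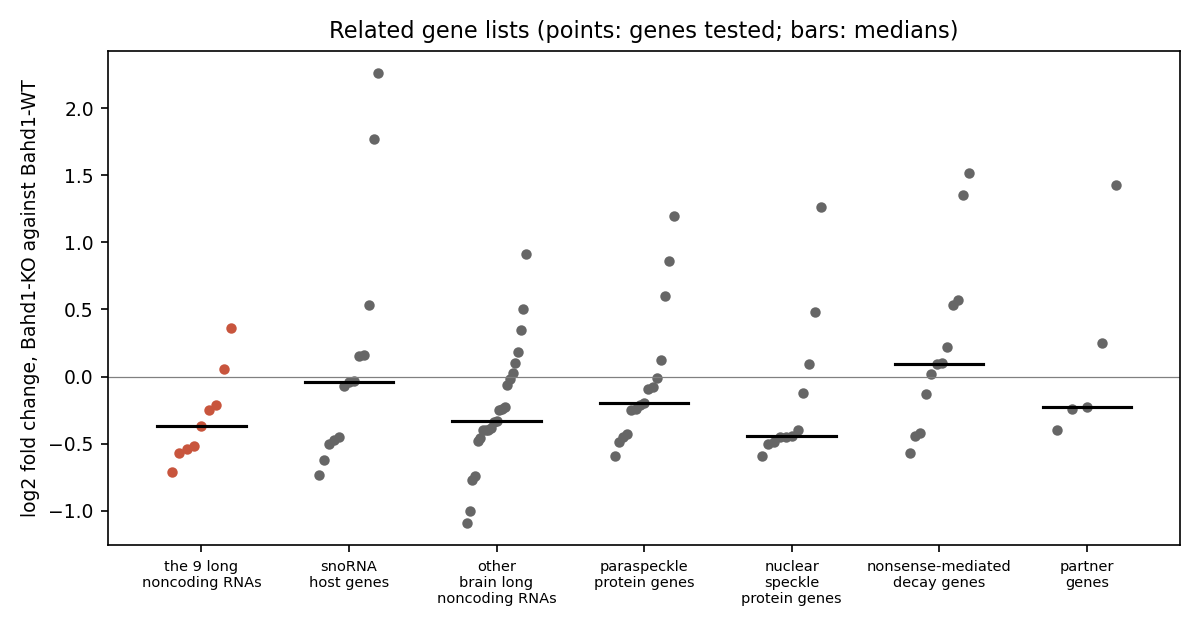
Log2 fold changes of the 9 long noncoding RNAs (red) and of the genes of 6 related lists (grey; 1 point per gene tested, black bars at the medians). Medians run from -0.44 for nuclear speckle protein genes to 0.09 for nonsense-mediated decay genes, and each list has genes on both sides of 0.

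The nearest expressed genes reported here had values on both sides of 0. Beside Neat1, whose own log2 fold change was 0.06, Frmd8 had 1.01 (standard error 0.34, adjusted p = 0.0955 in edgeR's test). Slc3a2, an amino acid transporter subunit whose gene starts 106 bases from Snhg1 on the opposite strand, had 0.69 (standard error 0.21, adjusted p = 0.078) while Snhg1 had -0.54. Zbtb37, on the strand opposite to Gas5 and overlapping it by 428 bases, had -0.72 (standard error 0.21, adjusted p = 0.0702). Beside Oip5os1, Nusap1, a mitotic spindle gene, had -1.42 (standard error 0.31, adjusted p = 0.0634), and Chp1 -0.14. Frmd8 and Slc3a2 had 56.2% and 53.4% GC, Zbtb37 and Nusap1 41.4% and 41.8%. The other neighbours, beside Miat, Snhg11, Rmst and Pantr1 and on the far side of Snhg1, lay between -0.45 and 0.82, the latter being Tpst2.

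The genes with the profile most like each long noncoding RNA were sought among those with a mean of at least 10 CPM, by Pearson's correlation of log2 CPM over the 6 mice, which carries the genotype and the libraries with it. The closest were Lman1 and Kdm5b for Oip5os1 (0.9991 and 0.9990), Tmbim4 and Tusc3 for Pantr1 (0.9991 and 0.9953), Mal and Zfp263 for Rmst (0.9969 and 0.9966), and Ggh and Fam46a for Snhg1 (0.9962 and 0.9956). Gas5 was closest to Enox2 and Chordc1 (0.9959 and 0.9951), Snhg11 to Zkscan2 and Uvssa (0.9954 and 0.9945), Miat to Sec16a and Dock1 (0.9901 and 0.9866), and Neat1 to Cirbp and Elmsan1 (0.9685 and 0.9572). Malat1 had the lowest such values, 0.9546 with Tinf2 and 0.9397 with mt-Nd6, a mitochondrial gene. With 6 mice and 9892 genes to choose from, values of this height are given as a description only.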

How the data were processed

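The deposited table holds raw read counts per gene, which the authors made from polyadenylated RNA with a stranded kit. The submitters' processing notes name cutadapt 1.11, STAR 2.5.0a and featureCounts 1.4.6-p3, with the build GRCm38, and reads on exons were summed by gene. The supplementary methods also name a second aligner, without saying which libraries it was used for. Groups came from the labels, and nothing beyond separate samples tells that libraries are separate animals other than the study's methods (3 mice per genotype).

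Counts were tested in R 4.3.3 with edgeR 4.0.16 (TMM factors, quasi-likelihood test, genotype as the only term) on the 23975 genes whose counts summed to 10 or more, with Benjamini-Hochberg adjustment over all of them. A call needs an adjusted p under 0.05. The study used DESeq2, here an alternative (1.42.0, Wald test). CPM used TMM-scaled library totals, and a count of 3 equals 0.0315 to 0.069 CPM. The offset was a spline of log2 CPM on GC content (5 degrees of freedom) and log length (3) in each library. Positions, lengths and GC content came from GENCODE M21 (GRCm38), and starts and microRNAs from RefSeq (GRCm38.p6). Antisense genes overlapping Malat1, Miat and Rmst had 6, 57 and 6 counts, against 176843, 42523 and 2186 for the genes themselves. Reads were thus not assigned to the opposite strand, but these counts cannot tell stranded from unstranded counting.

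The genes and lists were chosen with earlier results of these data known. All 9 genes are named. Of each list, genes past the threshold were to be named, and with fewer than 2 of them the highest and the lowest fold change among genes with a mean of at least 1 CPM. Neighbours are the nearest genes with a mean of at least 1 CPM, and some of them are not reported here. The fit was run on simulated counts with the same dispersion for all genes and no GC trend. That run checks the code and does not tell how the fit performs on these libraries. Alternatives changed the scaling, the filter, the test, the offset, the replicate block and each library in turn.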

Additional observations from a re-analysis of the deposited data

How the results depend on the processing

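With 3 mice per genotype the intervals of single genes were wide. The scarcest gene had at least 214 counts in a library, and the part of depth in the calls was not tested. The count of 0 called among the 9 genes was kept with DESeq2 size factors, upper-quartile factors, total counts, a filter at 1 count, filterByExpr, robust shrinkage, a 2-fold minimum and both offset fits. DESeq2's Wald test called 1 with and without its normal prior (Rmst, -0.66 and -0.69). Leaving out 1 library gave 0 to 3, and the 3 came without Bahd1-KO replicate 1, where 7 of the 9 genes did not overlap (3 to 7 over the 6 libraries left out, beside 43.2% to 61.8% of all genes). DESeq2 size factors and total counts each left 2 of the 3 separate genes, Rmst and Oip5os1 (39.6% and 38.6% of all genes), and with the offset Rmst, Neat1 and Gas5 were separate (26.2%). Upper-quartile factors moved the median of all genes to -0.20 and turned Neat1 to -0.08. Without Bahd1-WT replicate 3 Neat1 was -0.08 and without Bahd1-KO replicate 3 it was -0.04, in a range of -0.08 to 0.20 over the libraries left out. The offset turned Malat1 to 0.24, Miat to -0.29, Gas5 to 0.17 and Oip5os1 to 0.06, and the offset with the replicate block to 0.09, -0.30, 0.18 and 0.06. The cause was not tested.

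Over the libraries left out, adjusted p in edgeR's test ran from 0.0249 to 0.301 for Rmst, from 0.0839 to 0.311 for Snhg11 and from 0.0642 to 0.341 for Oip5os1. Log2 fold changes ran from -0.85 to -0.12 for Malat1, from 0.15 to 0.61 for Miat, from -0.80 to -0.39 for Snhg1, from -0.36 to -0.12 for Gas5 and from -0.60 to -0.08 for Pantr1.

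In the lists, where 0 genes were called, a filter at 1 count called 2 snoRNA host genes, 4 other long noncoding RNAs, 2 paraspeckle, 1 nuclear speckle, 2 decay and 1 partner gene, and total counts 0, 2, 0, 1, 2 and 0. Both forms of DESeq2 called 2, 5, 2, 1, 3 and 1 in that order, and leaving out 1 library 0 to 4, 0 to 7, 0 to 6, 0 to 7, 0 to 6 and 0 to 2, with all of the upper values without Bahd1-KO replicate 1. These settings also raised the calls over all genes, from 2 to 3611 (filter), 2253 (total counts), 4114 and 4115 (DESeq2) and 7113 (without Bahd1-KO replicate 1).

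The replicate block called 0 of the 9 genes and 7 of all genes. Samples that share a replicate number did not deviate together (r = -0.577, -0.61 and -0.137). With 3 mice per genotype these values gave no sign that the numbers pair the mice, but they cannot exclude it.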

Other observations

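Summed over the 9 long noncoding RNAs, the level was 3583, 3701 and 2856 CPM in the Bahd1-WT mice and 2482, 2228 and 2704 CPM in the Bahd1-KO mice. The genotypes did not overlap in this sum. Snhg11 and Oip5os1 dominate it, so that it largely repeats their separation given above. No test was made of it, and other scalings were not tried on it.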
